A study of Rattus norvegicus with 12 samples.

Results

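Fibroblast and scar-related miRs, namely rno-miR-21-5p, rno-miR-199a-3p, rno-miR-199a-5p and rno-miR-214-3p, were followed in extracellular vesicles (EVs) from the serum of injured rats. They were picked by name for their known roles in fibroblasts and scar formation and are 4 of the 426 mature rat miRs counted in 12 libraries. All 12 animals were female wild-type Wistar rats, 12 weeks old, and each had a needle puncture of the left Achilles tendon. Treated animals received rapamycin, an inhibitor of the mTOR kinase, at 2 mg per kg by intraperitoneal injection, which came to 5 injections before the day 7 collection and 19 before day 21 post-injury. Control animals received the same volume of vehicle (PEG and Tween 80). There were 3 libraries for each treatment at each timepoint, and no uninjured animals among them. The sample labels name tendon as the tissue, whereas the RNA came from serum EVs. These EVs were isolated by size exclusion alone, a step that can leave other carriers of RNA in the preparation.

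Each miR acts by pairing its seed, the bases near its 5′ end, with target mRNAs and lowering their output. In activated fibroblasts miR-21 is induced by TGF-β signalling and restrains brakes on growth and matrix production, such as Spry1 and Smad7. The Mir199a2 and Mir214 hairpins, which give miR-199a and miR-214, come from one long non-coding transcript, Dnm3os. It lies within the Dnm3 gene on the opposite strand and is switched on in mesenchymal cells. The 5p arm of miR-199a targets caveolin-1, which otherwise limits TGF-β signalling, and the 3p arm targets Mtor and Met. Targets of miR-214-3p include Ezh2. All of these miRs are also carried in blood, where many cell types other than fibroblasts can release miR-21.

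The mature sequences are shown because the seed, in capitals (bases 2 to 8), decides which mRNAs each miR can pair with and whether any other counted miR could share its targets.
rno-miR-21-5p: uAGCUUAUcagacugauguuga
rno-miR-199a-3p: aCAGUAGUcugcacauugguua
rno-miR-199a-5p: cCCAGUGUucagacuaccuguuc
rno-miR-214-3p: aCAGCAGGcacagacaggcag
Sequences are from RefSeq (GRCr8). The 4 seeds were all different, and none of the other rat miRs among the 693 mature sequences compared had any of them. The closest pair was miR-199a-3p and miR-214-3p, whose seeds hold the same base at 5 of 7 positions. In RefSeq, Mir199a2 and Mir214 both lie within Dnm3, while Mir21 overlaps no gene and has Vmp1 as its nearest protein-coding gene.

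A further product of one of the same hairpins was counted, rno-miR-21-3p, from the arm opposite miR-21-5p. The Mir21 hairpin is printed with both mature arms in capitals, because the arms are made from the same molecule yet differed widely in count.
Mir21 hairpin: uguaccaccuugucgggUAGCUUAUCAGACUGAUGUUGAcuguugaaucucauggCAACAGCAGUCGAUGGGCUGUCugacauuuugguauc
Over the 12 libraries, miR-21-5p had 29932 counts and miR-21-3p had 82, a ratio of 365. For the miR-199a hairpin the arms were closer, with 463 counts of miR-199a-5p and 151 of miR-199a-3p, a ratio of 3.07. The 113 counts of miR-214-3p made it the rarest of the 4 miRs.

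The study carried 10 of the 12 libraries into its own analyses. Vehicle day 7 replicate 1 and rapamycin day 7 replicate 2 were not among them, and the sources used here give no reason. Values are given for those 10 libraries first and for all 12 beside them. The 10 libraries held 16327 to 51391 miR counts, with 0.686 to 1.58 miR counts for each count of the synthetic calibrator RNAs added to every sample. The vehicle library left out by the study held 95834 miR counts at 12.8 per calibrator count, and the rapamycin library held 51431 at 5.53. They also stood apart in makeup, with summed erythrocyte miRs at 14578 and 37307 CPM, against 71741 to 144627 CPM in the 10. Levels are CPM (counts scaled to a common library size) after TMM over all 12 libraries, a scaling that sets most miRs level between libraries. A miR with 3 counts stood at 31.3 to 184 CPM of the library total, which is taken as the smallest level these depths can show and covers counting error only. Labels do not pair animals across groups, and each library is taken to be 1 animal.

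miR-21-5p was one of the most abundant miRs in every library, and it was lower with rapamycin in the 10 libraries, by an amount that did not pass the test across all miRs. It ranked 2nd among all miRs in 8 of the 10 libraries and no lower than 6th in any of the 12. Its share of the miR counts in the 10 libraries ran from 4.53% (95% Wilson interval 4.26% to 4.80%) in rapamycin day 21 replicate 2 to 9.01% (8.76% to 9.26%) in vehicle day 7 replicate 3, and was 4.02% in the vehicle library the study left out. At day 7 it stood at 63617 and 75164 CPM with rapamycin, against 89336 and 103135 CPM with vehicle. At day 21 the 3 rapamycin libraries stood at 81067, 42815 and 80943 CPM, and the 3 vehicle libraries at 101515, 94852 and 81759 CPM. Each of the 5 rapamycin libraries was thus below each of the 5 vehicle libraries, although the nearest pair, at 81067 and 81759 CPM, was almost level. How many of all miRs separated in this way over both days was not counted. Within a day, treatments did not overlap for 30.7% of all 365 miRs at day 7 and 5.21% at day 21. The means over both days were 68721 ± 16128 CPM (SD, n = 5) and 94119 ± 8834 CPM (SD, n = 5).

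**Figure D1:**
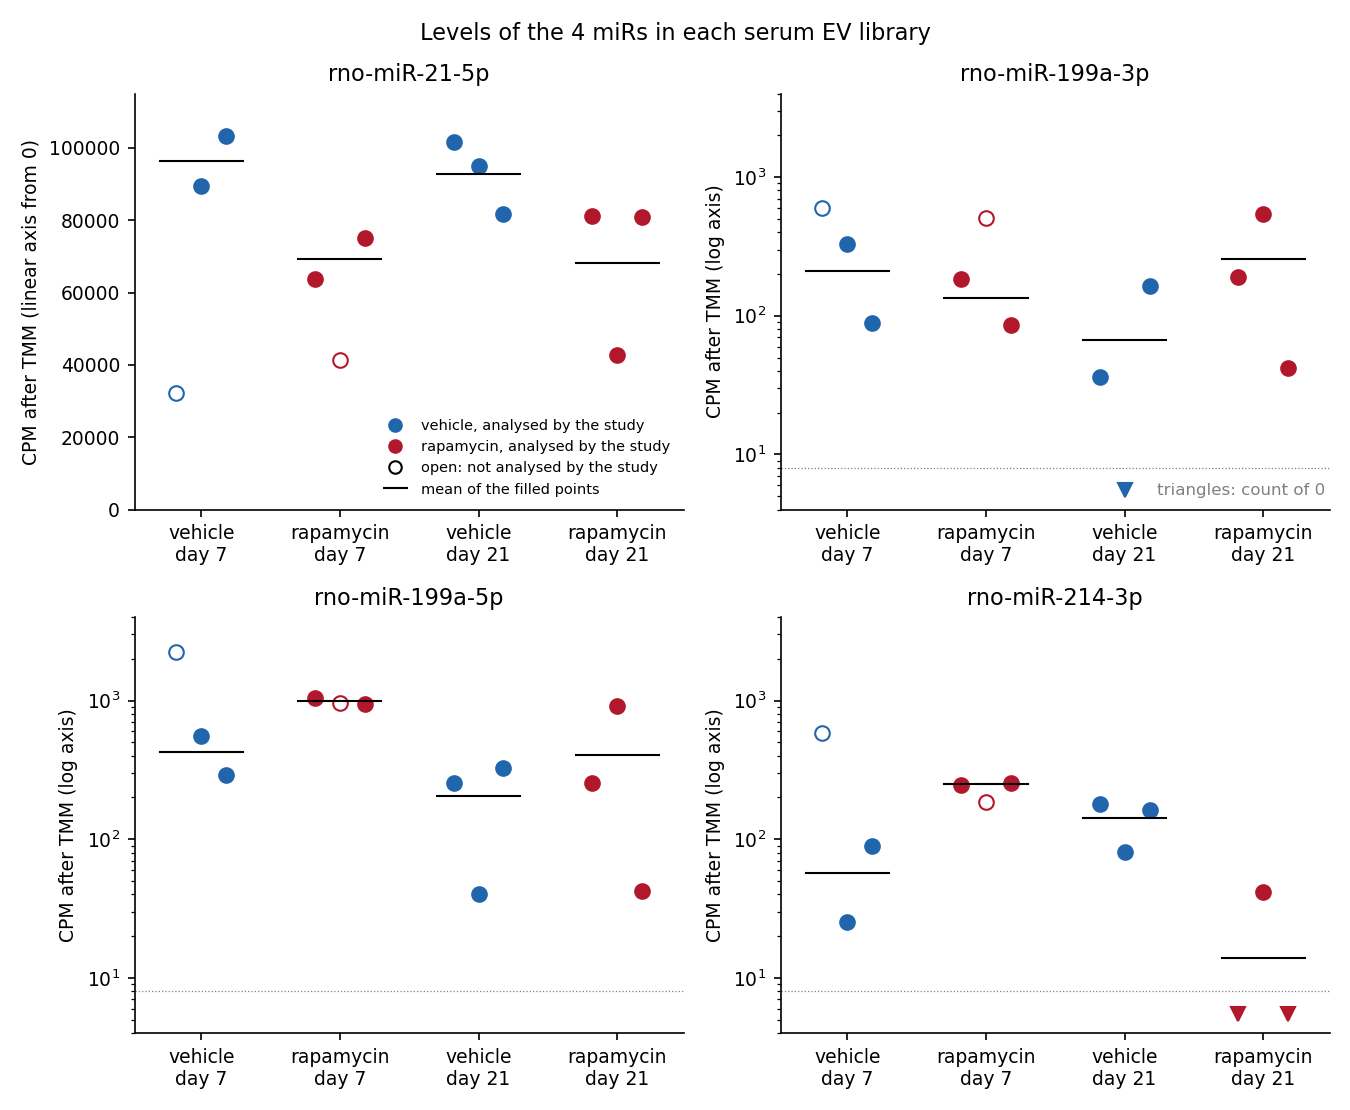
Level of each of the 4 miRs in each library, by treatment and day post-injury, in CPM after TMM (linear axis from 0 for miR-21-5p, log axes for the others). Filled points are the 10 libraries the study analysed and open points the other 2, bars are the means of the filled points, and triangles under the dotted line are counts of 0. The filled rapamycin points of miR-21-5p sit at or under 81067 CPM and the filled vehicle points at or above 81759 CPM, while the open points sit at 32239.5 and 41284.8 CPM.

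With day as a block, the log2 fold change of miR-21-5p in the 10 libraries was -0.34 with a standard error of 0.18 (edgeR's quasi-likelihood test, adjusted p = 0.747 over 365 miRs), and -0.22 without rapamycin day 21 replicate 2. By timepoint it was -0.42 at day 7 (standard error 0.30, adjusted p = 0.979) and -0.28 at day 21 (standard error 0.25, adjusted p = 1). Fits that each left out 1 library gave -0.64 to -0.18 at day 7, the former without vehicle day 7 replicate 1 and the latter without rapamycin day 7 replicate 2 (each from the 12), and -0.55 to -0.09 at day 21, the former without rapamycin day 21 replicate 3 and the latter without replicate 2. In the same comparison 2 of the 365 miRs (0.548%) were called at an adjusted p under 0.05, and none of the 4 miRs was among them. An exact permutation test on the log2 levels, two-sided and within days, gave a difference of -0.49 and p = 0.0167 (adjusted p = 0.0667 over the 4 miRs), the smallest p that the 120 arrangements allow. This was 1 of 24 such tests made on the 4 miRs on this scale, and 2 of them had a p under 0.05. The separation rested on the scaling. With TMM factors from the 10 libraries alone, the rapamycin libraries reached 91192 CPM and the vehicle libraries went down to 76920 CPM, and the exact permutation test gave a difference of -0.38 with p = 0.1. As a share of the library total the difference was -0.32 (exact permutation test, p = 0.0333), with the highest rapamycin library at 80304 CPM and the lowest vehicle library at 79778 CPM.

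Relative to the calibrator RNAs, which track how much miR was recovered from a sample, miR-21-5p was lower in the 10 libraries. So were miRs in general on this scale. With calibrator totals as library sizes and day as a block, the median log2 fold change over all 365 miRs was -0.27 in edgeR's fit. The values of miR-21-5p on this scale thus include a lower miR yield. miR-21-5p stood at 49.7 to 95.9 counts per 1000 calibrator counts with rapamycin (median 78.1, n = 5) and at 76.2 to 142 with vehicle (median 132, n = 5). The log2 difference within days was -0.72 in the 10 libraries (exact permutation test, p = 0.0333) and -0.74 in all 12 (p = 0.13). On this scale the unanalysed vehicle library stood at 512 and the unanalysed rapamycin library at 288, above all others of their treatment.

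**Figure D2:**
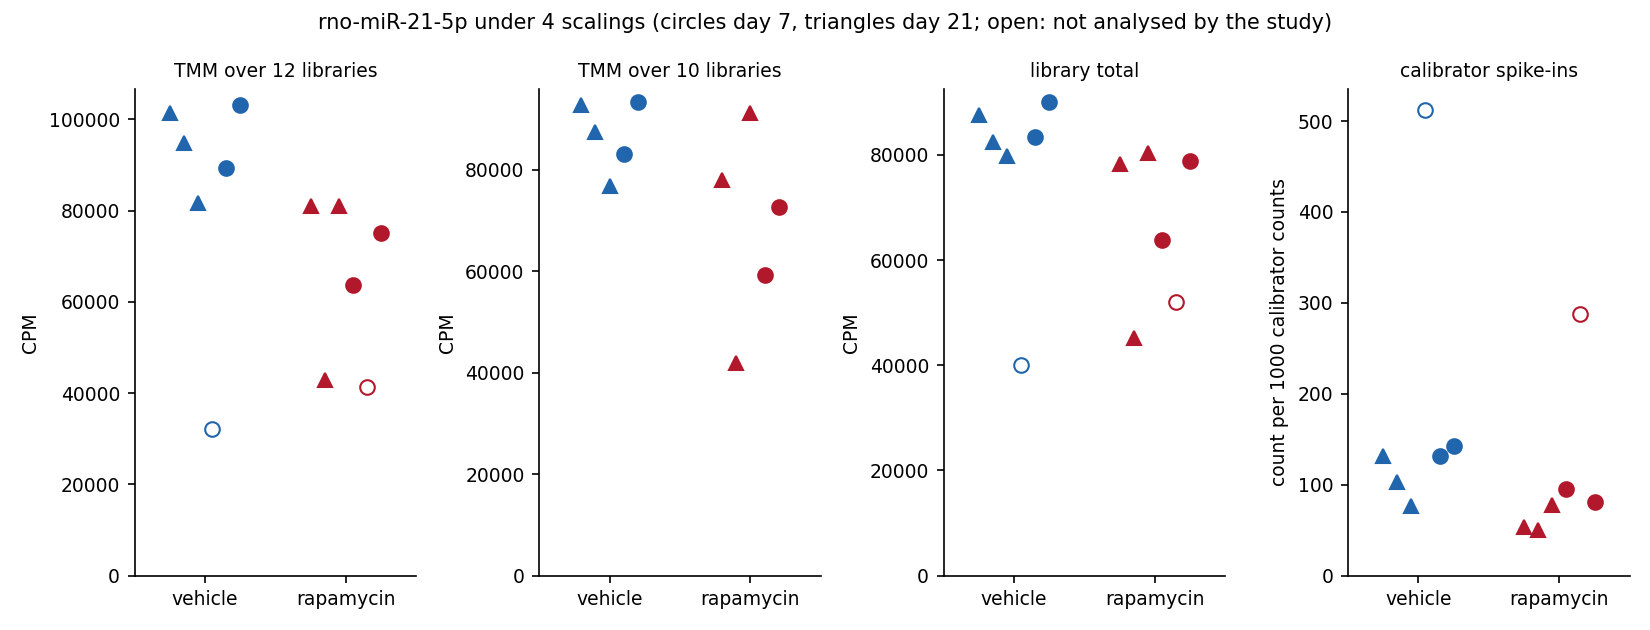
Level of rno-miR-21-5p in each library by treatment under 4 scalings, in CPM for the first 3 panels and in counts per 1000 calibrator counts for the last, each on a linear axis from 0. Blue is vehicle, red is rapamycin, circles are day 7, triangles are day 21 and open symbols are libraries the study did not analyse (not scaled in the panel of TMM over 10 libraries). Filled symbols of the treatments do not overlap under TMM over 12 libraries and overlap under the other 3 scalings.

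With all 12 libraries the order of miR-21-5p at day 7 was lost. The vehicle library left out by the study had 32239.5 CPM, the lowest of the series, and the rapamycin one 41284.8 CPM. With day as a block the log2 fold change was -0.38 (standard error 0.30, edgeR adjusted p = 0.907 over 426 miRs), and the exact permutation test gave p = 0.285. None of the 426 miRs (0%) was called in that fit. Between the timepoints, the log2 fold change of miR-21-5p from day 7 to day 21 was -0.04 (standard error 0.27) with vehicle and 0.09 (standard error 0.27) with rapamycin in the 10 libraries. The opposite arm, miR-21-3p, had 0 to 18 counts in a library. Its levels at day 21 were 649, 241 and 40.9 CPM with vehicle and 0, 125 and 42.3 CPM with rapamycin, which overlap (log2 fold change -2.16, standard error 1.21, edgeR adjusted p = 1).

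Both arms of miR-199a were scarce, and neither passed the test in any comparison. In the 10 libraries the treatments overlapped at both times for the 3p arm and at day 21 for the 5p arm, whereas at day 7 the 5p arm was higher in both rapamycin libraries. Among the 10 libraries miR-199a-5p had 1 to 34 counts, and miR-199a-3p had 0 to 13 counts, with 3 or fewer in 5 libraries. At day 7 miR-199a-5p stood at 1041 and 937 CPM with rapamycin and at 555 and 290 CPM with vehicle. The rapamycin library that the study left out, at 956 CPM, fell within its group, so that the 3 rapamycin animals were close to each other (978 ± 55.2 CPM, SD, n = 3). The vehicle library that the study left out stood at 2237 CPM, above every other library of the series. By day 21 miR-199a-5p stood at 252, 40.1 and 328 CPM with vehicle and at 254, 915 and 42.3 CPM with rapamycin. The treatments overlapped at that time except for rapamycin day 21 replicate 2, which was above all vehicle libraries, and no other day 21 library was near the day 7 rapamycin level.

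For miR-199a-5p, the log2 fold change with rapamycin was 1.26 (standard error 0.92, edgeR adjusted p = 0.979) at day 7 and 1.06 (standard error 0.83, adjusted p = 1) at day 21 in the 10 libraries. With day as a block it was 1.15 (standard error 0.61, adjusted p = 0.747). With all 12 libraries the day 7 value was -0.09 (standard error 0.71) and the blocked value 0.37 (standard error 0.53). With only the vehicle library that the study left out removed from the 12, the day 7 value was 1.28. Pooled over the listed day 7 libraries, there were 56 counts in 54897 with rapamycin and 35 in 93815 with vehicle, a ratio of 2.73 (exact 95% interval 1.76 to 4.30, counting error only). Over all 12 libraries the direction was the opposite, with 118 counts in 106328 against 302 in 189649, a ratio of 0.697 (0.558 to 0.865). Across days with rapamycin, all 3 day 21 libraries were below all 3 day 7 libraries, as 10.1% of all 426 miRs had no overlap there. The nearest pair was almost level, at 915 CPM (day 21 replicate 2) and 937 CPM (day 7 replicate 3), each from 22 counts. The log2 fold change between these days was -1.25 over 12 libraries (standard error 0.76, edgeR adjusted p = 0.831) and -1.20 over the 10 (standard error 0.84, adjusted p = 1). Fits that each left out 1 library gave -2.80 (without rapamycin day 21 replicate 2, edgeR adjusted p = 0.0939) to -0.72 (without rapamycin day 21 replicate 3).

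At day 7 miR-199a-3p stood at 184 and 85.2 CPM with rapamycin and at 328 and 89.1 CPM with vehicle, and at 509 and 595 CPM in the libraries the study left out. At day 21 it stood at 36.0, 0 and 164 CPM with vehicle and at 190, 541 and 42.3 CPM with rapamycin, where the library at 541 CPM was also the one with the highest 5p arm. The log2 fold change of miR-199a-3p with rapamycin was -0.56 at day 7 (standard error 1.37, edgeR adjusted p = 1). The log2 fold change at day 21 was 2.00 (standard error 1.25, edgeR adjusted p = 1), from 17 counts with rapamycin and 5 with vehicle. Without rapamycin day 21 replicate 2 the day 21 value was 0.81 for miR-199a-3p and -0.47 for miR-199a-5p. Over both days, the ratio of the 5p to the 3p arm had a log2 difference of -0.09 between treatments in the 10 libraries (exact permutation test, p = 0.9) and of -0.25 in all 12 (p = 0.655). By timepoint the values in the 10 libraries had opposite signs, and whether the ratio's treatment difference differed between days was not tested. At day 7 the log2 difference of this ratio was 1.63 with no overlap in the 10 libraries (exact permutation test, p = 0.333, the smallest that 2 against 2 allows) and 0.75 with overlap in all 12 (p = 0.4). At day 21 it was -1.24 with no overlap (exact permutation test, p = 0.1, the smallest allowed). At day 21 the ratio of miR-199a-5p to miR-214-3p was higher in all 3 rapamycin libraries than in any vehicle library (log2 difference 2.68, exact permutation test, p = 0.1, the smallest that 3 against 3 allows, and 1 of 15 tests of ratios). How often ratios of other miRs separate was not counted. For single miRs in the 10 libraries the share was 30.7% at day 7 and 5.21% at day 21. These ratios had 0.5 added to each count and rest on 0 to 13 counts of miR-199a-3p and 0 to 8 of miR-214-3p in the 10 libraries.

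miR-214-3p was higher with rapamycin at day 7 and lower at day 21 in the 10 libraries, on very few counts and without passing the test across all miRs. At day 7 the rapamycin libraries had counts of 8 and 6 and the vehicle libraries 1 and 4, or 245 and 256 CPM against 25.2 and 89.1 CPM. At day 21 the vehicle libraries had counts of 5, 2 and 4 and the rapamycin libraries 0, 1 and 0, or 80.2 to 180 CPM against at most 41.6 CPM. The rapamycin libraries were above the vehicle libraries at day 7 and below them at day 21, with no overlap at either time. Of all 365 miRs, 30.7% had no overlap at day 7 and 5.21% at day 21. A count of 0 allowed a level of up to 184 CPM in rapamycin day 21 replicate 1 and 126 CPM in replicate 3, which reaches the vehicle levels. Pooled by group, day 21 gave 1 count in 62885 with rapamycin and 11 in 85855 with vehicle, a ratio of 0.124 (exact 95% interval 0.00288 to 0.854, counting error only).

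The fitted log2 fold change of miR-214-3p was 2.08 (standard error 1.64, edgeR adjusted p = 0.979) at day 7 and -2.78 (standard error 1.82, adjusted p = 1) at day 21. Their difference, tested as an interaction, was 4.86 (standard error 2.46, adjusted p = 1), where the median over all 365 miRs was -0.17 and 1 of them (0.274%) was called. Fits that each left out 1 library gave 2.65 (without rapamycin day 7 replicate 2, from the 12) to 7.16 (without rapamycin day 21 replicate 2) for the interaction. For day 21 they gave -2.40 (without rapamycin day 21 replicate 1 or 3) to -5.03 (without replicate 2, where the remaining rapamycin counts are all 0 and the fitted value is no bound). The exact permutation test of the interaction on the log2 levels gave a difference of 3.11 with p = 0.0167 (adjusted p = 0.0667 over the 4 miRs). This p was again the smallest that 120 arrangements allow and came from 1 of the 24 tests. The test shuffled treatment labels within each day, which takes rapamycin to have no effect at either time. Its p therefore does not by itself show that the effect differed between days. Over all 12 libraries the day 7 fold change was -0.10 (standard error 1.11), with 70 counts and 586 CPM in the vehicle library left out by the study, and 1.96 without that library. The exact permutation test of the interaction over 12 libraries gave p = 0.065. The day 21 value is set by libraries that are the same in both fits and was -2.96 (standard error 1.71, adjusted p = 1) with 12. Across days with rapamycin, miR-214-3p had 6 to 12 counts in the 3 day 7 libraries and 0 or 1 at day 21, with no overlap, as for 10.1% of all 426 miRs (log2 fold change -3.63 over 12 libraries, standard error 1.65, adjusted p = 0.469). In the same libraries the liver miRs (miR-122-5p, miR-192-5p and miR-194-5p) summed to 8679 to 10141 CPM at day 7 and 0 to 4827 CPM at day 21, and to 3938 and 4056 CPM in the 2 vehicle day 7 libraries that the study analysed. They summed to 321 to 6223 CPM with vehicle at day 21, and to 10766 CPM in the vehicle library left out by the study, which was also the highest in miR-214-3p. Of the 3, miR-122-5p was called between days with rapamycin (log2 fold change -2.43, standard error 0.46, edgeR adjusted p = 5.77e-05 in the 10 libraries). Their part in the miR-214-3p values was not tested.

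**Figure D3:**
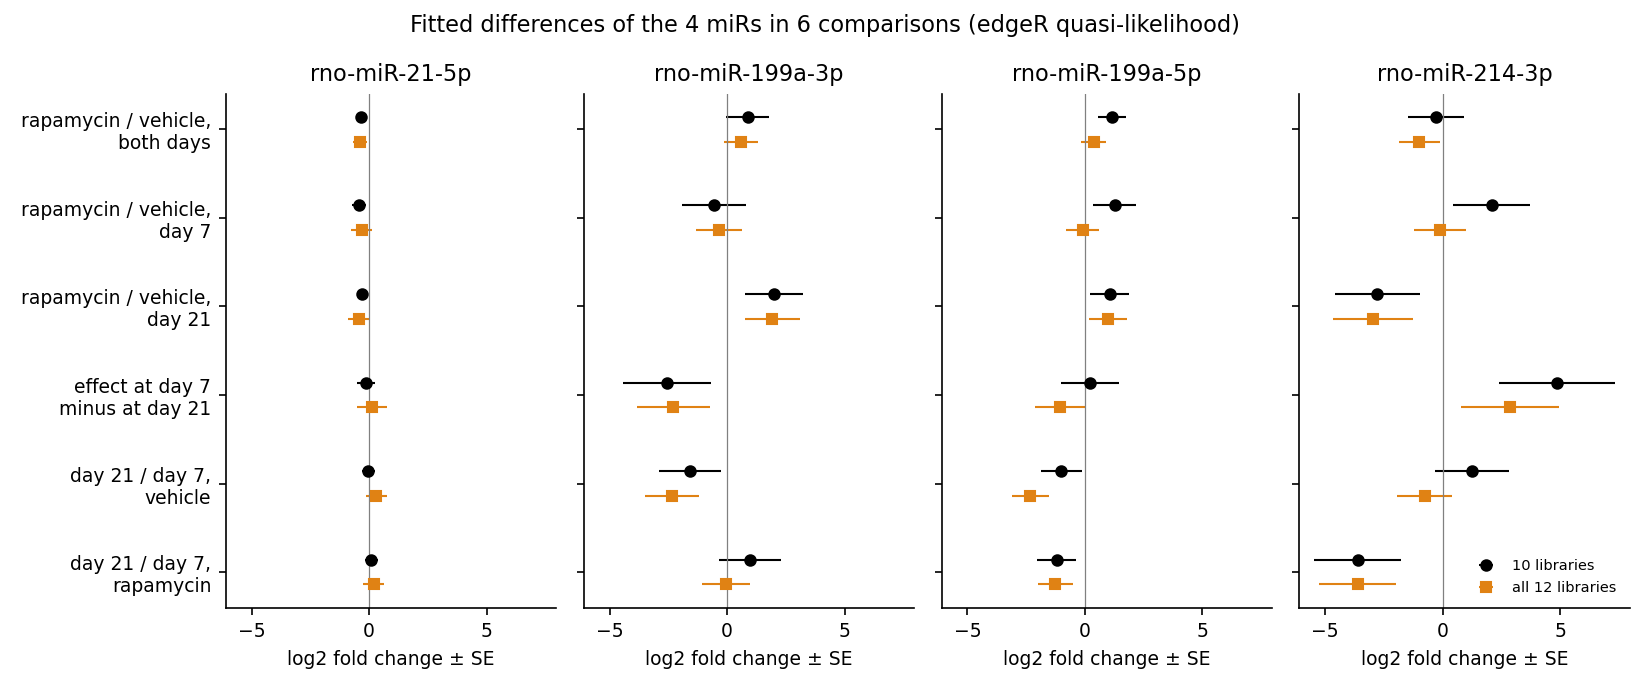
Fitted log2 fold change of each miR, with a standard error derived from the F statistic as a bar, in 6 comparisons from edgeR's quasi-likelihood fit to 10 libraries (black circles) and to all 12 (orange squares). The bars of miR-21-5p are narrow and near 0, those of the 3 scarce miRs are wide, and none of the 24 values in either fit passed an adjusted p of 0.05.

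In none of the 6 comparisons was any of the 4 miRs called by edgeR, in the 10 libraries or in all 12, and DESeq2's Wald test called none either. In the 10 libraries, 1 of the 4 had an unadjusted p under 0.05 by edgeR in the interaction and 1 in the comparison of days with rapamycin, in both cases miR-214-3p. Of all 365 miRs, 13 and 19 had such a p in these comparisons. For DESeq2 the count was also 1 in each, again miR-214-3p. Among all 365 miRs, edgeR called 2 at day 7 (0.548%), 0 at day 21 (0%), 1 between days with vehicle (0.274%) and 2 between days with rapamycin (0.548%). With 12 libraries, both the day 7 and the day 21 comparison and the interaction gave 0 of 426 (0%), the days with vehicle 2 (0.469%) and the days with rapamycin 5 (1.17%). Where edgeR called 0, it gave an unadjusted p under 0.05 to 15 miRs at day 21 in the 10 libraries, and with all 12 to 8 miRs at day 7, 12 at day 21, 14 in the interaction and 15 with day as a block. Leaving out rapamycin day 21 replicate 2 gave 6 calls at day 7, 4 at day 21, 7 in the interaction and 16 between days with rapamycin, none of them one of the 4 miRs. DESeq2 called 0 of all miRs in each of the 6 comparisons in the 10 libraries. With vehicle over 12 libraries, the log2 fold change from day 7 to day 21 was -2.31 for miR-199a-5p (standard error 0.79, edgeR adjusted p = 0.229). It was -2.33 for miR-199a-3p (standard error 1.14, edgeR adjusted p = 0.662). The unadjusted p of both was under 0.05 there, where the median of all miRs was -0.43. In the 10 libraries the same values were -1.002 (standard error 0.88) and -1.58 (standard error 1.32), both with an adjusted p of 1.

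Groups that do not overlap were common among all miRs where groups were small, and the 4 miRs are read against that. At day 7, miR-21-5p, miR-199a-5p and miR-214-3p had no overlap between treatments in the 10 libraries, where this held for 30.7% of all 365 miRs. At day 21 it was miR-21-5p and miR-214-3p, against 5.21% of all miRs. Between days with rapamycin it was miR-199a-5p and miR-214-3p, against 14.8%, and with vehicle none of the 4, against 10.7%. Over all 12 libraries none of the 4 was free of overlap at day 7 (3.29% of all 426 miRs) or between days with vehicle (5.87%). There miR-21-5p and miR-214-3p had no overlap between treatments at day 21 (4.46%), and miR-199a-5p and miR-214-3p had none between days with rapamycin (10.1%). The day 21 separation of miR-21-5p was absent when levels were taken as shares of the library total.

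The 4 miRs did not vary together across libraries as one group. The arms of miR-199a had a Pearson r of 0.81 over 12 libraries and 0.73 over the 10. For miR-199a-5p and miR-214-3p, whose Mir199a2 and Mir214 hairpins lie in the same host transcript, r was 0.64 and 0.45. For miR-199a-3p and miR-214-3p it was 0.21 and -0.19. Libraries with more miR-199a had less miR-21-5p, with r = -0.80 over 12 and -0.68 over 10 for the 3p arm and -0.73 and -0.56 for the 5p arm. These values share the libraries' totals and scaling and rest on counts of 0 to 13 for miR-199a-3p and 0 to 8 for miR-214-3p in the 10 libraries, and they are given as descriptions.

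The miRs most like each member were ranked by the same r over 12 libraries, among about 130 miRs with a mean of at least 10 counts. For miR-21-5p these were miR-142-3p (r = 0.96), miR-142-5p (0.95) and miR-128-3p (0.94), of which the miR-142 arms are made in blood cells. Over the 10 libraries r with miR-142-3p was 0.91. For miR-199a-5p they were miR-99a-5p (0.97 over 12, 0.98 over 10), miR-23b-3p (0.94) and miR-497-5p (0.92). Those of miR-199a-3p were miR-125b-2-3p (0.87), miR-23b-3p (0.87) and miR-30a-5p (0.82). For miR-214-3p the highest were miR-378a-3p (0.82), miR-152-3p (0.78) and miR-192-5p (0.77), and over the 10 libraries miR-192-5p came first (0.79). Of the miRs nearest miR-21-5p, the miR-142 arms were on the leukocyte and platelet list and miR-128-3p was on no cell type list. Of those nearest miR-199a-5p, miR-99a-5p was on the mesenchymal list and miR-23b-3p and miR-497-5p were on none. The cells that released these miRs were not tested.

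**Figure D4:**
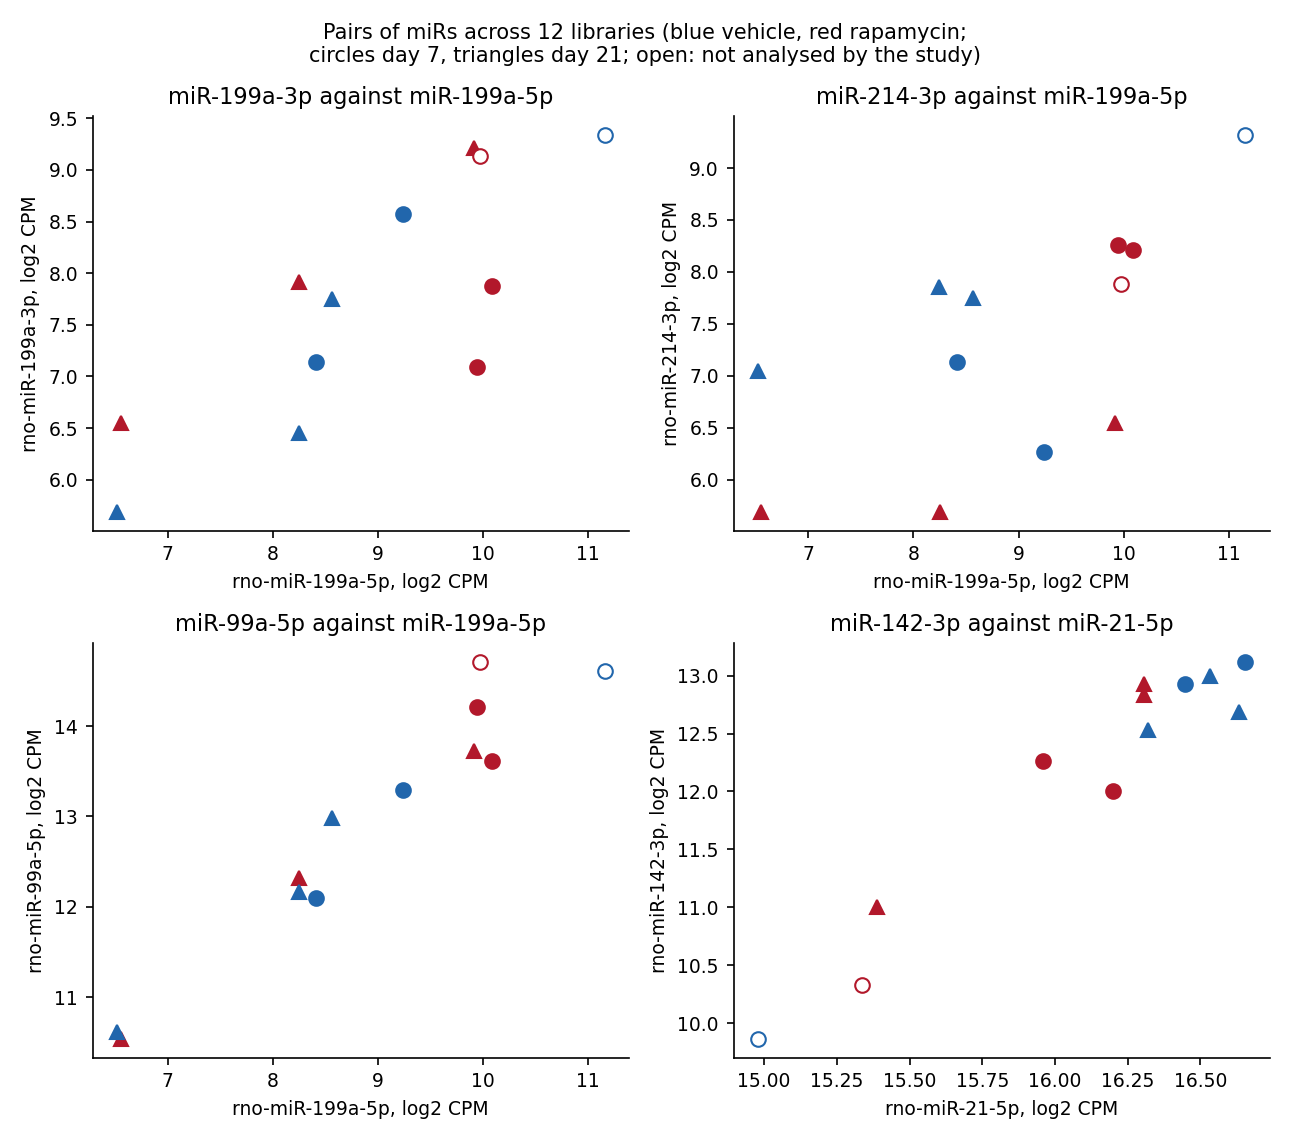
Log2 CPM (TMM over 12 libraries, prior count of 2) of pairs of miRs, 1 symbol per library. Blue is vehicle, red is rapamycin, circles are day 7, triangles are day 21 and open symbols are the libraries that the study did not analyse. miR-99a-5p rises with miR-199a-5p (r = 0.97) and miR-142-3p with miR-21-5p (r = 0.96), while miR-214-3p against miR-199a-5p is scattered (r = 0.64), with the 2 rapamycin day 21 libraries that had a count of 0 at the bottom.

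Other miRs linked to fibrosis, among them the miR-29, miR-30 and miR-200 families that restrain matrix genes or epithelial-to-mesenchymal transition, are given for comparison. Of 24 on the list, 21 were counted and 20 had a count in the 10 libraries. With adjustment over all 365 miRs, edgeR called none of the 20 in any of the 6 comparisons. After removing low-abundance miRs, the study listed miR-133a-3p as higher and miR-34a-5p as lower with rapamycin, blocking on timepoint. An abundance cutoff set to give the most calls left 110 miRs here and called 5 with day as a block. Whether any of those 5 was on the list is not given. The median log2 fold change of the 20 with day as a block was 0.15, against 0.03 over all miRs, and 4 of the 20 had an unadjusted p under 0.05, as did 21 of all 365 miRs. With all 12 libraries the median was -0.0634, against -0.0953 over all miRs, with 2 of 21 under that p. For day 7, the median over the list came to 0.67 with 10 libraries but 0.0424 with 12, and for day 21 to -0.13 and -0.17. In the 10 libraries the median over all miRs was 0 at both times, and 2 of the 20 were under that p at each time, as were 14 and 15 of all 365 miRs. Of the 7 with at least 10 counts in every library, the highest value was 0.71 for miR-101a-3p (standard error 0.27, edgeR adjusted p = 0.326) and the lowest was -0.32 for miR-26a-5p (standard error 0.19, adjusted p = 0.830). With 12 libraries, miR-133a-3p, a muscle miR, fell by 3.79 on the log2 scale between days with vehicle (edgeR adjusted p = 9.5e-05). It had 1026 counts in the vehicle day 7 library that the study left out and 5 and 6 in the other two, and in the 10 libraries its value was 0.71 (edgeR adjusted p = 1). Also with 12 libraries, miR-200a-3p fell by 3.91 between days with rapamycin (adjusted p = 0.00451), from 7, 139 and 27 counts to 0, 5 and 0. In the 10 libraries the value was -3.04 (adjusted p = 0.302).

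Markers of the cells that could supply these EVs differed between libraries as well, and their part in the levels of the 4 miRs was not tested. The miRs of a list of 12 mesenchymal and smooth muscle miRs, such as miR-143-3p and miR-145-5p, were all counted and summed to 26487 to 61206 CPM in the 10 libraries, and to 75681 and 77112 CPM in the libraries the study left out. At day 7 their sum was 42186 and 55409 CPM with vehicle and 57372 and 52027 CPM with rapamycin. None of the 12 was called in the 10 libraries, and with all 12 libraries miR-218a-5p was lower at day 21 with rapamycin (log2 fold change -4.29, edgeR adjusted p = 0.0444). Of the 8 striated muscle miRs, 7 were counted and summed to 0 to 1872 CPM in the 10 libraries and to 8898 CPM in the vehicle library left out by the study. The muscle-defining miR-206-3p was at 0 in all 10 and miR-1-3p had 0 to 5 counts. By contrast, miR-133a-3p had 38 counts in rapamycin day 7 replicate 1 and 45 in rapamycin day 21 replicate 2. In the rest of the 10 it had 0 to 13, and with adjustment over all miRs it was not called there. The 6 leukocyte and platelet miRs had a day 7 sum of 29699 and 36676 CPM in the analysed rapamycin libraries, below the 46498 and 59122 CPM of the vehicle ones, in the same direction as miR-21-5p. In the libraries the study left out it was 26007 CPM (rapamycin) and 18784 CPM (vehicle), where miR-21-5p was low too. One of them, miR-150-5p, a lymphocyte miR, was called at day 7 (log2 fold change -2.09, standard error 0.47, edgeR adjusted p = 0.00283 in the 10 libraries and 0.196 in all 12). At day 21 their sum overlapped between treatments, with a range of 40654 to 41889 CPM in the vehicle libraries and of 21304 to 55948 CPM in the others. The 4 erythrocyte miRs, including miR-451-5p, held 71741 to 144627 CPM in the 10 libraries, and none was called in the 10 libraries or in all 12. In serum, a smaller number of EVs from a cell type and fewer miR copies in each EV cannot be told apart.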

How the data were processed

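Small RNA of serum EVs was sequenced from 12 animals. The authors deposited raw counts per mature miR, without normalization. Per the labels and methods, reads were trimmed with cutadapt 3.3 (at least 17 nt), mapped with Bowtie 1.3.0 to the rat genome (mRatBN7.2, 2 mismatches) and assigned to miRBase with 1 mismatch. Such matching can place reads of near-identical miRs on either. Groups and replicate numbers came from the labels. The 10 spike-ins were left out of totals, which ran from 16327 to 95834.

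edgeR 4.0.16 (quasi-likelihood, TMM) was fitted to every miR with a count, with Benjamini-Hochberg adjustment over all of them. Its standard errors were derived as the size of the fitted coefficient over the square root of the F statistic. That coefficient lacks the small prior count in edgeR's fold changes, so the error is approximate where counts are 0. The main fit used the 10 libraries that the study analysed. One model had a mean per treatment and day, and another had treatment with day as a block. The spread of the 2 groups with 2 libraries was shared with the others. Single values (log2 CPM with a prior count of 2, or 0.5 for shares, ratios and calibrator scaling) were tested with two-sided exact permutation tests (scipy 1.17.1). DESeq2 1.42.0, other scalings, low-count filters, a replicate block and fits without each library were alternatives. Scripts were tested on simulated data.

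Besides the 4 miRs, the text names their other arms or paralogs that were counted and the 3 miRs most like each by Pearson r. It also names miRs of the fibrosis list that were called here, listed by the study, or highest or lowest with treatment. Marker miRs named with a list were chosen after their values were seen. The members and lists were chosen by known roles, with earlier results of these data known.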

Additional observations from a re-analysis of the deposited data

Results flagged for a closer look

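A library was marked where its gap to the nearest of the others of its treatment, both days together, was large for the range of that group (Dixon's criterion). Of 20 groups of 5 or 6 libraries examined, 4 held such a library. A chance rate of about 1 in 20 would hold for independent groups of normally distributed values. These groups shared libraries and their levels were CPM without a log scale, some from very few counts. The 4 are therefore not compared with that rate. Vehicle day 7 replicate 1, which the study did not analyse, was marked for 3 miRs over the 6 vehicle libraries: it was lowest for miR-21-5p at 32239.5 CPM, highest for miR-199a-5p at 2237 CPM and highest for miR-214-3p at 586 CPM. Vehicle day 21 replicate 1 was highest for miR-21-3p at 649 CPM, from 18 counts.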

How the results depend on the processing

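No alternative called any of the 4 miRs in any of the 6 comparisons, and the smallest adjusted p over 22 alternatives was 0.0939. Leaving aside the fits without one library, 193 of 212 fold changes kept their direction. With all 12 libraries the log2 fold change turned to -0.0898 for miR-199a-5p and -0.10 for miR-214-3p at day 7, to -1.06 for miR-199a-5p and 0.12 for miR-21-5p in the interaction, to 0.31 for miR-21-5p and -0.77 for miR-214-3p between days with vehicle, and to -0.0498 for miR-199a-3p between days with rapamycin. Under other scalings or tests only miR-21-5p turned: to 0.0123 (library total) and 0.15 (calibrators) in the interaction, to 0.0220 (RLE size factors and also DESeq2) between days with vehicle, and to -0.0712 (library total) and -0.55 (calibrators) between days with rapamycin. With the replicate block, which the labels' shared numbers allow, miR-199a-3p turned to 0.10 at day 7 in the 10 libraries. With the replicate block over 12 libraries the interaction was -0.58 for miR-199a-5p and 0.16 for miR-21-5p, the days with vehicle 0.35 for miR-21-5p and -0.30 for miR-214-3p, and the days with rapamycin -0.0858 for miR-199a-3p. The block called none of the 4. Same-numbered libraries did not deviate together, with correlations of their deviations from -0.78 to 0.43, so the numbers were not taken as pairs. The cause of these turns was not tested.

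Further fits, 12 per comparison, each left out 1 library, and 258 of 288 values kept their direction. Where some turned, the range was -1.16 to 0.17 for miR-214-3p with day as a block, -1.48 to 0.72 for miR-199a-3p, -0.30 to 1.89 for miR-199a-5p and -0.20 to 3.13 for miR-214-3p at day 7, -0.47 to 1.47 for miR-199a-5p at day 21, -1.31 to 1.77 for miR-199a-5p and -0.36 to 0.10 for miR-21-5p in the interaction, -0.0942 to 0.27 for miR-21-5p and -0.97 to 2.24 for miR-214-3p between days with vehicle, -0.29 to 1.51 for miR-199a-3p and -0.14 to 0.31 for miR-21-5p between days with rapamycin.

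Over all miRs, the calls went from 2 to 0 with day as a block, from 2 to 0 at day 7, from 1 to 0 in the interaction, from 1 to 2 between days with vehicle and from 2 to 5 between days with rapamycin when all 12 libraries took the place of the 10, and DESeq2 called 0 in each. Over the fits without 1 library they ranged from 0 to 6 with day as a block, 0 to 6 at day 7, 0 to 4 at day 21, 0 to 7 in the interaction, 0 to 4 between days with vehicle and 1 to 16 between days with rapamycin. Precision was limited by depth for miR-199a-3p and miR-214-3p, which had 3 or fewer counts in 5 of the 10 libraries each, and by 2 libraries per treatment at day 7.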
